A study of Bos taurus with 10 samples.

Results

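*CITED2* and *KITLG* are 2 of the 9155 genes that the Bovine Genome array names with a single symbol, and each was read by 1 probe set of the 24016 tested (Bt.21607.1.S1_at for *CITED2* and Bt.354.1.S1_at for *KITLG*). Both probe sets varied between arrays. Both are regulators of granulosa cells, and they were selected on their measured difference between immature and in vitro matured (IVM) oocytes, so that difference is described here without a test. Immature and IVM oocytes of cattle were read in 5 pools each, from follicles of 3 to 8 mm on abattoir ovaries of cows, with 100 oocytes per pool and 1 array per pool. No strain, age or genetic change was given. Immature oocytes (0 h) were stripped of their cumulus cells and frozen at once. IVM oocytes had spent 24 h at 39°C inside their cumulus, in medium with 10% fetal calf serum and 10 ng/ml of epidermal growth factor, and were stripped afterwards. Oocytes with visible cumulus were left out of the pools. The pools mix oocytes of several animals, so no value belongs to a single oocyte or cow.

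KITLG, also called stem cell factor, is a growth factor made by the granulosa cells of the follicle. Its receptor is KIT, a tyrosine kinase on the surface of the oocyte, which signals through phosphatidylinositol 3-kinase and AKT and through RAS to drive oocyte growth. CITED2 is a nuclear protein that binds no DNA itself. It binds the coactivators CBP (*CREBBP*) and p300 (*EP300*), competes there with the hypoxia factor HIF1A, and assists other transcription factors such as the AP-2 proteins. In the early gonad it acts with WT1 and NR5A1.

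*CITED2* was higher and *KITLG* was lower in IVM than in immature oocytes, and neither gene had overlapping groups. All values are log2 values that the authors had summarised per probe set. For *CITED2*, immature replicates 1 to 5 were at 8.05, 8.21, 7.95, 7.97 and 7.82, and the IVM replicates were at 9.68, 9.52, 9.40, 9.94 and 9.34. Every IVM array was above every immature array, with IVM replicate 4 highest and immature replicate 5 lowest. The immature mean was 8.00 ± 0.14 (SD, n = 5) and the IVM mean 9.57 ± 0.24 (SD, n = 5). *CITED2* thus differed by 1.57 with a standard error of 0.13, or 2.97-fold.

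For *KITLG*, immature replicates 1 to 5 were at 7.32, 7.48, 7.32, 7.19 and 7.38, and the IVM replicates were at 6.58, 6.68, 6.66, 6.71 and 6.77. Every IVM array was below every immature array, with immature replicate 2 highest and IVM replicate 1 lowest. The immature mean was 7.34 ± 0.10 (SD, n = 5) and the IVM mean 6.68 ± 0.07 (SD, n = 5). *KITLG* thus differed by -0.66 with a standard error of 0.06, and was 1.58-fold lower in IVM oocytes. The median over all probe sets was 7.04 to 7.10 on the 10 arrays, between the 2 group means of *KITLG*. Probe sets that did not vary stood nearby, such as those of *FOXL2* at 6.54 and 6.71. How much of the *KITLG* value was background was not tested. The nearest arrays of the 2 groups were 1.13 apart on the log2 scale for *CITED2* and 0.43 apart for *KITLG*. Separation of this kind was common on these arrays: all IVM arrays lay above all immature arrays for 10.6% of the 24016 probe sets, and below them for 11.5%. Among the 9460 probe sets whose 10 values spanned at least 0.01 on the log2 scale, called varying here, these shares were 27.0% and 29.3%.

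**Figure D1:**
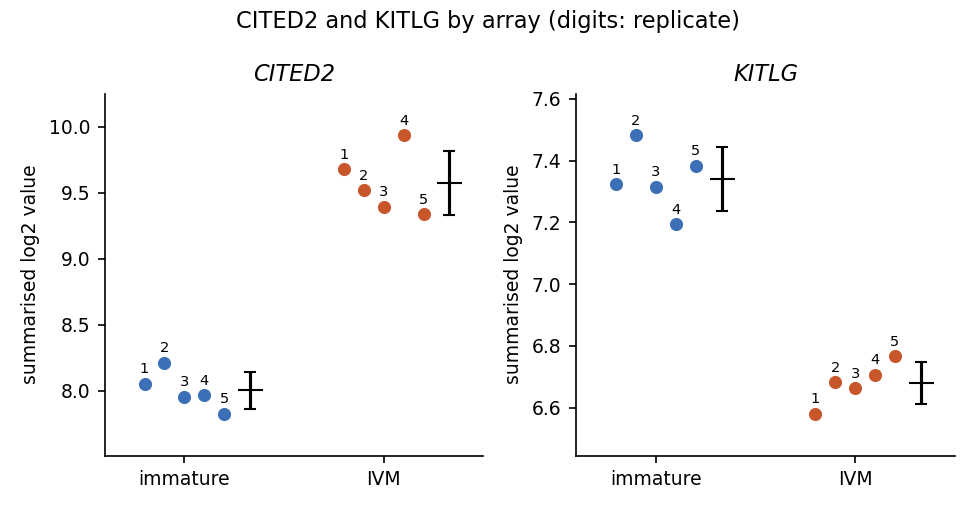
Summarised log2 value of *CITED2* and of *KITLG* on each of the 5 immature and 5 IVM arrays, with replicate numbers beside the points and the mean and SD of each group as a bar. The vertical scales differ between the panels. The IVM arrays lie between 9.34 and 9.94 for *CITED2*, all above the immature arrays, and between 6.58 and 6.77 for *KITLG*, all below them.

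Within replicate numbers, which per the study's methods are days of ovary collection, *CITED2* was higher in the IVM pool by 1.63, 1.31, 1.44, 1.97 and 1.51 for replicates 1 to 5. *KITLG* differed by -0.74, -0.80, -0.65, -0.49 and -0.62. Replicate 4 thus had the greatest difference of *CITED2* and the smallest of *KITLG*. Since the groups did not overlap for either gene, any pairing of the arrays gives these directions.

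The difference of *CITED2* was large among the varying probe sets that moved its way, and that of *KITLG* was not. Of the 5435 varying probe sets with a higher mean in IVM oocytes, 657 (12.1%) had a larger difference than *CITED2*. Of the 4025 with a lower mean, 2575 (64.0%) had a larger fall than *KITLG*. The spread of *KITLG* within groups was small, since only 5.47% of the varying probe sets had a smaller pooled SD than its 0.09, and 29.1% had one smaller than the 0.20 of *CITED2*.

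Control transcripts moved with the groups. Poly-A controls, bacterial transcripts that are normally added to the RNA before amplification, were at 7.02 ± 0.15 (SD, n = 5) on immature and 7.95 ± 0.20 (SD, n = 5) on IVM arrays (p = 0.00794 in a two-sided exact permutation test, which cannot give a smaller one with 5 against 5 arrays). With each array centred on these controls, which moved the median difference of all probe sets to -0.94, the difference of *CITED2* was 0.64 and that of *KITLG* was -1.60. Their directions were the same, but *CITED2* was then the smaller of the 2 differences. The part of RNA amount in either gene's difference was not tested. Each other difference between the means of all 5 IVM and all 5 immature arrays is also lower by 0.94 on that scale, so those between 0 and 0.94 turn negative. Hybridization controls were at 10.02 ± 0.73 (SD, n = 5) on immature and 10.92 ± 0.19 (SD, n = 5) on IVM arrays. Their difference was 0.90 (p = 0.0556 in the same permutation test), near that of the poly-A controls. They were lower on immature replicates 1, 2 and 3 (9.38 to 9.73) than on the other 7 arrays (10.75 to 11.22). Against immature replicates 4 and 5 alone, the IVM arrays differed by 1.68 for *CITED2* and -0.61 for *KITLG*, about as much as with all arrays.

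*KIT*, the receptor for KITLG, was read by 4 probe sets, of which 1 did not vary. The varying probe set with the highest mean (Bt.26445.1.A1_at) was at 10.52, 11.12, 10.56, 10.65 and 11.05 on immature replicates 1 to 5 and at 11.16, 11.02, 10.66, 10.81 and 11.08 on the IVM replicates. These groups overlapped, and the difference was 0.17 (standard error 0.15, adjusted p = 0.523 from limma). The other varying probe sets did not overlap between the groups. Bt.27675.1.A1_at was at 9.96 ± 0.27 (SD, n = 5) and 11.51 ± 0.48, a difference of 1.55 (adjusted p = 0.00160 from limma), and Bt.12804.1.S1_at was at 7.82 ± 0.20 (SD, n = 5) and 9.11 ± 0.43, a difference of 1.29 (adjusted p = 0.00200). None of the 3 passed the threshold used here, an adjusted p under 0.0001 from limma over all probe sets, which is the false discovery rate of the study's methods. The probe sets disagreed on the size of the difference, and none had a lower mean in IVM oocytes, although the difference of 0.17 would turn negative with each array centred on the poly-A controls.

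**Figure D2:**
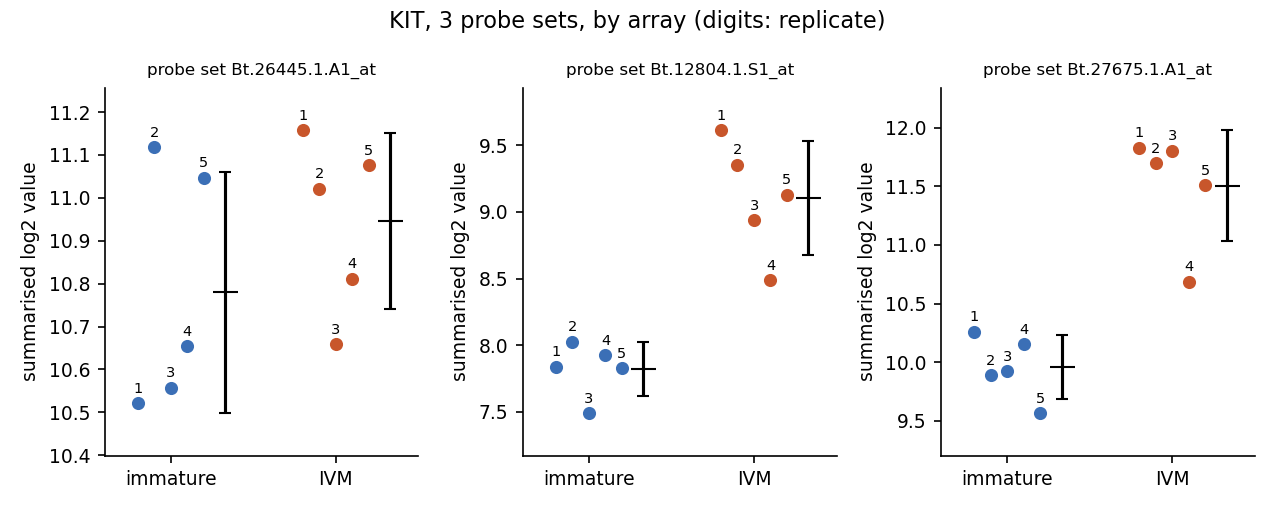
Summarised log2 value of the 3 varying *KIT* probe sets on each array, with replicate numbers beside the points and the mean and SD of each group as a bar. The vertical scales differ between the panels. The groups overlap for the probe set with a difference of 0.17 and not for those with differences of 1.29 and 1.55.

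Downstream of the receptor, most genes did not pass. Of 40 genes of KIT receptor signalling, 21 were found on the array, 13 varied, and at the threshold 1 rose and 1 fell. Over all probe sets 0.974% were higher and 4.81% lower at this threshold, and over the varying ones 2.38% and 12.1%. *AKT1*, a kinase of the phosphatidylinositol 3-kinase route, rose by 1.32 (standard error 0.11, adjusted p = 3.66e-05 from limma), from 9.26 ± 0.18 (SD, n = 5) to 10.58 ± 0.16, and another probe set of the gene had a difference of 0.96 and did not pass. *HRAS*, a GTPase of the RAS route, fell by 3.39 (standard error 0.08, adjusted p = 6.14e-08), from 10.62 ± 0.14 (SD, n = 5) to 7.23 ± 0.12. The immature and IVM arrays did not overlap for either gene. The call of *AKT1* ended when any 1 of immature replicates 1, 3 and 5 or IVM replicates 1, 2, 3 and 5 was left out, with an adjusted p of up to 2.33e-04, and with each array centred on the poly-A controls (adjusted p = 0.0250). At an adjusted p under 0.05, 6 of the 13 genes were higher and 3 lower, where 34.0% and 31.7% of the varying probe sets were. The median difference of the 13 genes was 0.55, against 0.18 over the varying probe sets, and it was -0.39 with the arrays centred on the poly-A controls. *FOXO3* and *EP300* were not analysed here. With days of collection as blocks, limma called none of the 24016 probe sets (smallest adjusted p = 1.76e-04, with 4731 higher and 4074 lower at an unadjusted p under 0.05), so no gene named here passed in that fit. With these blocks over the varying probe sets alone, 172 were higher and 930 lower, and *HRAS* passed whereas *AKT1* did not. The IVM arrays against immature replicates 4 and 5 alone gave 0 probe sets higher and 4 lower in limma (3066 and 3307 at an unadjusted p under 0.05), and neither gene passed.

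Among the partners of CITED2, *SMAD3* fell and the others did not pass. Of 23 genes of the CITED family and its partners, 16 were found on the array and 8 varied, 1 of which fell and none of which rose (1 higher and 5 lower at an unadjusted p under 0.05 from limma). Of all varying probe sets, 2.38% were higher and 12.1% lower at the threshold. At an unadjusted p under 0.05 from limma, 41.5% were higher and 34.3% lower. *SMAD3*, which carries signals of activin and transforming growth factor β into the nucleus, fell by 5.15 (standard error 0.19, adjusted p = 4.54e-07), from 11.55 ± 0.14 (SD, n = 5) to 6.40 ± 0.40, with no overlap of the arrays, and another probe set of the gene did not vary. It passed in all 10 fits that left out 1 array, and over the varying probe sets with days as blocks. *CREBBP*, the coactivator CBP, was at 10.76 ± 0.34 (SD, n = 5) and 9.18 ± 0.21, a difference of -1.58 without overlap that did not pass (adjusted p = 2.47e-04). *HIF1A*, the hypoxia factor that competes with CITED2 for these coactivators, differed by -0.05 (standard error 0.32, adjusted p = 1), with overlapping arrays. The related gene *CITED1* differed by 0.61 (standard error 0.54, adjusted p = 0.487), and *CITED4*, *ARNT*, which encodes the partner of HIF1A, and *TFAP2A*, which encodes an AP-2 protein, did not vary. *TFAP2C* was not analysed here. The median of the 8 genes was -0.99, against 0.18 over the varying probe sets.

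Genes of the hypoxia response, some of which HIF1A activates and CITED2 is known to restrain, did not lie on one side. Of 40 genes, 32 were found on the array and 25 varied, 14 with a higher and 11 with a lower mean in IVM oocytes, and the median difference was 0.04, or 6 and 19 genes with a median of -0.89 once the arrays were centred on the poly-A controls. At the threshold 1 fell and none rose (7 higher and 9 lower at an unadjusted p under 0.05 from limma, against 41.5% and 34.3% of the varying probe sets). *BNIP3*, a mitochondrial protein of cell death and mitophagy, fell by 1.27 (standard error 0.12, adjusted p = 7.42e-05), from 11.84 ± 0.08 (SD, n = 5) to 10.56 ± 0.25. Its call ended without any 1 array except IVM replicate 3 (adjusted p of up to 4.49e-04), and another varying probe set of the gene, at -0.45, did not pass.

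**Figure D3:**
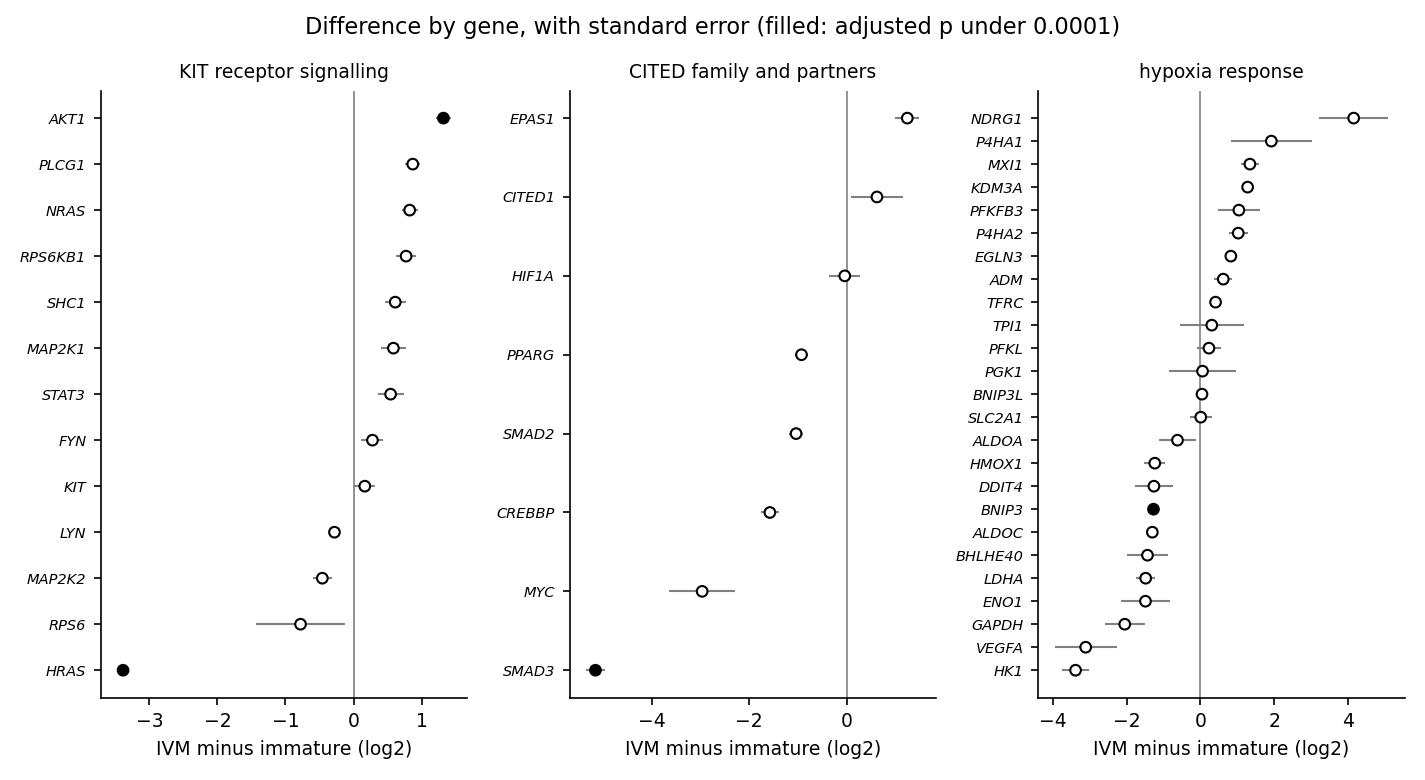
Difference of IVM minus immature oocytes on the log2 scale, with its standard error from limma, for the varying genes of the KIT signalling (13), CITED (8) and hypoxia (25) lists. Filled points passed an adjusted p under 0.0001; they are *AKT1* and *HRAS*, *SMAD3*, and *BNIP3*, and the horizontal scales differ between the panels.

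Among other growth factors and receptors through which oocyte and follicular cells signal to each other, few passed. Of 26 ligands, 22 were found and 9 varied, and none passed (4 higher and 1 lower at an unadjusted p under 0.05 from limma, against 41.5% and 34.3% of the varying probe sets). *GDF9*, a growth factor that the oocyte secretes, differed by -4.42 (standard error 0.52, adjusted p = 3.09e-04), and *INHBA*, a subunit of inhibins and activins, by -0.53 (standard error 1.29, adjusted p = 0.848). Of 25 receptors, 20 were found and 9 varied, 1 of which rose. At the threshold, 2.38% of all varying probe sets were higher and 12.1% lower. At an unadjusted p under 0.05 from limma, 4 receptors were higher and 0 lower, against the same 41.5% and 34.3%. *ACVR2B*, an activin receptor, rose 3.99-fold, from 7.53 ± 0.19 (SD, n = 5) to 9.53 ± 0.34 (adjusted p = 5.68e-05 from limma), and its call ended without any 1 array except IVM replicate 4 (adjusted p of up to 3.44e-04).

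Since denuded oocytes should hold little RNA of granulosa cells, markers of the follicular cell types were read on the same arrays. Fewer cells of a type and less RNA per cell cannot be told apart in these pools. Of 17 granulosa markers, 16 were found and 12 varied, and none passed, where 2.38% of the varying probe sets were higher and 12.1% lower. At an unadjusted p under 0.05 from limma, 1 marker was higher and 3 were lower, against 41.5% and 34.3% of the varying probe sets. *FOXL2*, a defining transcription factor of granulosa cells, did not vary on either of its probe sets. *FSHR*, the receptor for follicle-stimulating hormone, differed by -0.29 (adjusted p = 0.157), and *AMH*, the anti-Müllerian hormone, by -0.38 (adjusted p = 0.572). *CYP19A1*, the aromatase that makes oestrogen, was at 7.60 ± 0.63 (SD, n = 5) and 6.22 ± 0.10, with no overlap, a difference of -1.38 that did not pass (adjusted p = 0.00656). The markers with the largest differences each way, chosen after their values were seen, were *HSD17B1*, another enzyme of oestrogen synthesis, at -5.75 (adjusted p = 0.00142), and *GATA4*, a transcription factor, at 2.09 (adjusted p = 0.0151). A mean over the 12 markers ran from 7.66 to 10.38 on immature and from 7.82 to 9.42 on IVM arrays, so the groups overlapped. Of the 12 markers, 3 had a higher and 9 a lower mean in IVM oocytes. Their median difference was -0.53, against 0.18 over the varying probe sets. With the arrays centred on the poly-A controls, 1 marker was higher and 11 were lower, with a median of -1.47.

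*KITLG* and the granulosa markers were not highest on the same arrays. In immature oocytes the granulosa markers were lowest on replicate 2, with a mean of 7.66, where *KITLG* was highest (7.48). Across the IVM arrays the markers were lowest on replicate 5, at 7.82, where *KITLG* was again highest (6.77). The markers were highest on immature replicate 3, at 10.38, where *KITLG* was at 7.32. On IVM replicate 4 they were highest, at 9.42, and *KITLG* was next to its highest, at 6.71. *INHBA* ran from 7.27 to 13.52 over the immature arrays, a range of several log2 units, while *KITLG* ran from 7.19 to 7.48. On immature replicate 2 *CITED2* was also at its highest immature value, 8.21. The part of granulosa RNA in the difference of *KITLG* was not tested.

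Means over the cumulus and the stroma markers did not overlap between the groups, although few single markers passed. Of 11 cumulus expansion markers, 9 were found and 5 varied, 1 of which rose and none fell. At the threshold, 2.38% of the varying probe sets were higher and 12.1% lower. At an unadjusted p under 0.05 from limma, 5 cumulus markers were higher and 0 lower, against 41.5% and 34.3% of the varying probe sets. *TNFAIP6*, a hyaluronan-binding protein of the expanding cumulus, rose from 3.94 ± 1.15 (SD, n = 5) to 14.79 ± 1.93 (difference 10.86, adjusted p = 7.63e-05), and its call ended without any 1 array except IVM replicate 5 (adjusted p of up to 4.60e-04). Another varying probe set of *TNFAIP6* had a difference of 2.71 and did not pass (adjusted p = 0.0011 from limma). *PTX3*, another protein of that matrix, differed by 6.38 (adjusted p = 4.80e-04) and *HAS2*, the hyaluronan synthase, by 1.40 (adjusted p = 0.0285), and neither passed. Other probe sets of *HAS2* had differences of 0.38 and 0.29 and did not pass. A mean over the 5 markers ran from 6.66 to 7.79 on immature and from 10.45 to 13.29 on IVM arrays. *CITED2* was at its highest, 9.94, on IVM replicate 4, where this mean was highest, and at its lowest IVM value, 9.34, on replicate 5, where it was lowest. The immature arrays did not share this order. There the mean was highest on replicate 4, where *CITED2* was at 7.97, and *CITED2* was highest on replicate 2, at 8.21. Nor was the match on the IVM arrays particular to the cumulus markers. Means over the granulosa and the stroma markers were also highest on IVM replicate 4 and lowest on replicate 5. The mean over the oocyte markers, described below, was lowest on IVM replicate 4 (9.74) and highest on replicate 5 (11.08). The part of cumulus RNA in the difference of *CITED2* was not tested. The 5 varying theca and stroma markers, of 11, had a mean from 5.59 to 6.69 and from 7.68 to 10.12, again highest on IVM replicate 4. None passed (5 higher and 0 lower at an unadjusted p under 0.05 from limma, against 41.5% and 34.3% of the varying probe sets), and their differences ran from 0.01 for *COL3A1* to 5.81 for *PDGFRA*, both chosen after their values were seen. None of the 11 blood and immune markers found varied, so no change of theirs was measured.

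Oocyte markers were found for 10 genes, all of which varied, and 3 fell and none rose. Of the varying probe sets, 12.1% were lower and 2.38% higher at the threshold. At an unadjusted p under 0.05 from limma, 1 marker was higher and 6 were lower, against 41.5% and 34.3% of the varying probe sets. *GTSF1*, a germ cell protein that guards against transposons, fell by 4.87 (adjusted p = 6.09e-07). *NLRP5*, a maternal-effect gene, fell by 4.03 (adjusted p = 4.79e-05). *ZP3*, of the zona pellucida, fell by 3.78 (adjusted p = 6.49e-05). The call of *NLRP5* ended without any 1 array except IVM replicates 4 and 5 (adjusted p of up to 2.99e-04), and that of *ZP3* without any 1 except IVM replicate 5 (up to 3.96e-04). A mean over the 10 markers ran from 12.28 to 12.76 on immature and from 9.74 to 11.08 on IVM arrays. The other 7 oocyte markers did not pass. *GDF9* differed by -4.42 (adjusted p = 3.09e-04 from limma) and *ZP4*, of the zona pellucida, by -3.15 (adjusted p = 4.95e-04), both without overlap. *ZP2*, also of the zona pellucida, differed by -0.66, as *KITLG* did, *OOEP* by -0.12, *MOS* by 0.14, *BMP15* by 0.19 and *KPNA7* by 0.37.

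**Figure D4:**
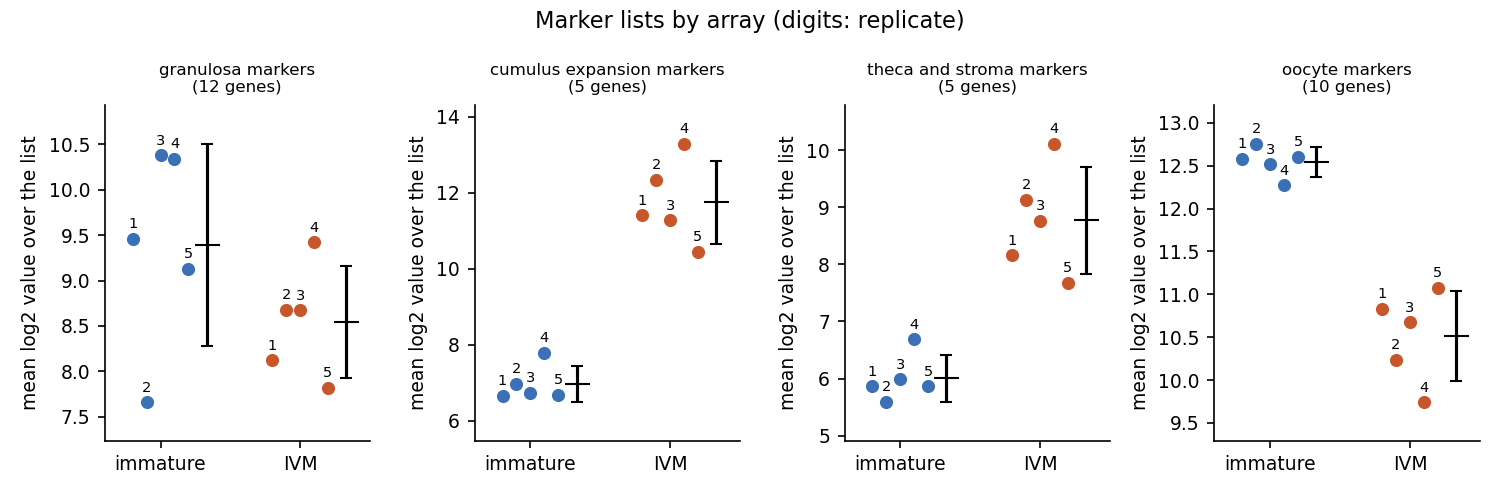
Mean log2 value over the varying genes of the granulosa, cumulus expansion, theca and stroma, and oocyte lists on each array, with replicate numbers beside the points and the mean and SD of each group as a bar. The groups overlap for the granulosa list alone, and IVM replicate 4 is highest for the granulosa, cumulus and stroma lists among the IVM arrays and lowest for the oocyte list.

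The genes with profiles nearest to *CITED2* were found by the root mean square difference over the 10 arrays, after each gene was set to a mean of 0. They were *MTDH* (0.10), a protein of the endoplasmic reticulum and nucleus linked to cell survival, *CD40* (0.11), a receptor of immune cells, *UNC119B* (0.16), which carries lipid-modified proteins to the cilium, *SEPTIN2* (0.17), a septin of the cytoskeleton, and *ANKIB1* (0.17), a ubiquitin ligase. *CITED2* itself lay 0.81 from its mean by this measure, which keeps the difference between the groups and so favours genes that share it. The difference of *MTDH*, 1.56, was within 0.02 of that of *CITED2*, but its other varying probe sets had differences of 1.70 and 0.46. Each neighbour stood by its nearest probe set alone. Another probe set of *ANKIB1* had a difference of 1.04, against 1.72 for the nearest, and another of *CD40* and of *UNC119B* did not vary.

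For *KITLG*, which lay 0.34 from its own mean, the nearest were *TGFBI* (0.07), a matrix protein induced by transforming growth factor β, *SMG9* (0.07), of nonsense-mediated decay, *GMEB1* (0.08), a DNA-binding protein, *CHTF18* (0.08), of sister chromatid cohesion, and *IST1* (0.09), a partner of the ESCRT machinery. Their differences between IVM and immature oocytes ran from -0.72 to -0.54, and another probe set of *SMG9* and of *CHTF18* did not vary. With each gene set to a mean of 0 within each group, which leaves out the difference between the groups, *GMEB1* was again among the 5 nearest to *KITLG* (0.05), after *USF1* (0.04), *SLC35E2B* (0.05) and *SYNCRIP* (0.05) and before *TSPAN33* (0.05). A gene with no change within groups would lie 0.08 from *KITLG* by this measure. None of the 5 nearest to *CITED2* over all arrays was among its 5 nearest within groups, which were *CMTM6* (0.08), *INPP5K* (0.09), *EMC3* (0.10), *GRHL1* (0.10) and *TRAM1* (0.10), where a gene with no change would lie at 0.18.

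**Figure D5:**
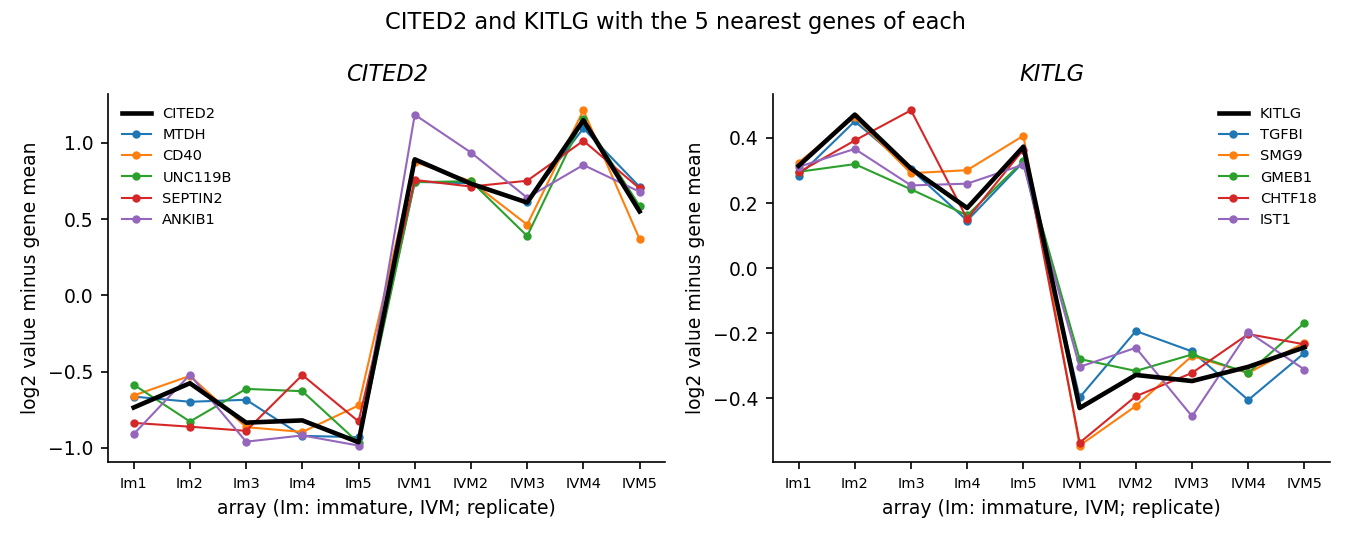
Log2 value minus the gene's mean over the 10 arrays, for *CITED2* and its 5 nearest genes and for *KITLG* and its 5 nearest genes, with immature replicates at the left and IVM replicates at the right of each panel. Lines join the values of 1 gene and imply no order of replicates. All 5 neighbours of *CITED2* are higher and all 5 of *KITLG* lower on every IVM array than on every immature array. The neighbours were chosen with the group difference left in, so this follows largely from the choice.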

How the data were processed

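Per the study's methods, 100 ng of RNA per pool was amplified in 2 rounds, and 15 μg of product was put on an Affymetrix bovine array. The authors read images with GCOS, normalized by quantiles and summarised with FARMS. Their deposited table holds 1 log2 value for each array and probe set. FARMS can return nearly 1 value on all arrays where the probes of a set share no signal, as for 14556 of the 24016 probe sets. Software versions were not given in the sources used here. Precision is limited by the number of arrays. The number of value columns not used was 0.

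The 112 control probe sets were set apart. Symbols came from the platform's annotation, updated by gene identifier for 13263 probe sets and by accession for 2, with 27 kept as given; 86 probe sets with several genes and 10638 unnamed ones were tested but not named. IVM and immature arrays, grouped by their titles, were compared with limma 3.58.1 in R 4.3.3, with Benjamini-Hochberg adjustment over 24016 probe sets. Calls needed an adjusted p under 0.0001, as the methods asked of SAM. The prior had 0.103 degrees of freedom, against 1.86 over the 9460 varying probe sets. On simulated data the fit recovered 34 of 100 changes of 2 and 12 of 100 changes of 1 on the log2 scale, with 0 false calls. No other probe sets were changed there, whereas the data gave 234 higher and 1155 lower. The adjustment depends on how many change, so the shares recovered need not hold for the data. A gene stood in a list by its probe set with the highest mean; for *GAB1*, *NR5A1*, *PPARA* and *EGLN1* this one did not vary although another did.

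Earlier results of these data were known when the 2 genes, the 10 lists and the alternatives were chosen. The genes named are *CITED2*, *KITLG*, the receptor *KIT* and some partners and markers whatever their values, up to 3 rising and 3 falling genes of each list past the threshold without overlap, and the 5 nearest profiles. The methods take replicates as days of collection. Deviations of same-numbered arrays from their group means had r = 0.14, -0.35, 0.09, 0.67 and 0.36 for replicates 1 to 5, across varying probe sets, so the data do not show shared days for all numbers. Alternatives were the day as a block, varying probe sets alone, an adjusted p under 0.05, centring on poly-A controls or medians, leaving out each array, immature replicates 4 and 5 alone, and the probe set with the highest variance. Group means of linear values, and the block with varying probe sets, were added after seeing the data. Figures were made with Python 3.11.15 and matplotlib 3.10.9.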

Additional observations from a re-analysis of the deposited data

Results flagged for a closer look

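Of 86 groups of 5 arrays examined for the genes and controls named, 6 held an array whose gap to its nearest neighbour exceeded 0.71 of the group's range, and chance gives such a gap in about 1 in 20 groups. None was a value of *CITED2* or *KITLG*. Among the neighbours of *CITED2*, *ANKIB1* stood at 9.25 on immature replicate 2 (next 8.86), *MTDH* at 11.21 on IVM replicate 4 (next 10.86), and *SEPTIN2* at 9.72 on immature replicate 4 (next 9.41) and 11.25 on IVM replicate 4 (next 10.99). Among the cumulus markers, *HAS2* stood at 10.19 on immature replicate 2 (next 9.09) and *TNFAIP6* at 5.95 on immature replicate 4 (next 3.77).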

How the results depend on the processing

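The direction of *CITED2* and *KITLG* was the same under each alternative run. Leaving out 1 array gave 1.48 to 1.63 for *CITED2* and -0.70 to -0.62 for *KITLG*. Centring on the poly-A controls gave 0.64 and -1.60. Means of linear values, array medians and immature replicates 4 and 5 alone moved neither by more than its spread. The causes of the changes below were not tested, except that a fit over varying probe sets adjusts over fewer of them.

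With days of collection as a block, a pairing that the data bear out for only some numbers, 0 probe sets were higher and 0 lower, and 0 genes of each list passed. With the block over varying probe sets, 172 of the 9460 were higher and 930 lower. KIT signalling then had 0 genes higher, the receptors 0 and the stroma markers 1. With varying probe sets alone and no block, 685 of the 9460 were higher and 1688 lower. In that last fit the higher genes were 2 of KIT signalling, 1 of the ligands, 3 of the receptors, 1 of the hypoxia response, 2 cumulus markers and 1 stroma marker, and the lower genes were 1 ligand, 2 CITED partners, 3 of the hypoxia response and 5 oocyte markers.

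Centred on the poly-A controls, 165 of the 24016 probe sets were higher and 18661 lower. The higher genes were 0 of KIT signalling, 1 ligand, 2 cumulus and 2 stroma markers, and the lower genes 3 of KIT signalling, 1 ligand, 1 receptor, 5 CITED partners, 9 of the hypoxia response, 4 granulosa, 1 stroma and 6 oocyte markers. Against immature replicates 4 and 5 alone, limma called 0 probe sets higher and 4 lower (3066 and 3307 at an unadjusted p under 0.05), with 0 genes of each list. At an adjusted p under 0.05, 3732 probe sets were higher and 3602 lower. The higher and lower genes were then 6 and 3 of KIT signalling, 3 and 1 ligands, 3 and 0 receptors, 1 and 5 CITED partners, 6 and 7 of the hypoxia response, 1 and 3 granulosa, 5 and 0 cumulus, 4 and 0 stroma, and 1 and 6 oocyte markers.

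Leaving out 1 array gave 77 to 318 probe sets higher and 703 to 1097 lower. The count of higher probe sets fell by over 1.5 times without any 1 array except IVM replicate 4, and that of lower ones without immature replicate 1, 3 or 5 or IVM replicate 2. The genes called ran from 0 to 1 for KIT signalling higher, the receptors higher, the hypoxia response in either direction, the granulosa markers lower and the cumulus markers higher, and from 1 to 3 for the oocyte markers lower, and were 1 in each such fit for KIT signalling lower and the CITED partners lower. Of the values recomputed over all alternatives, 247 moved by less than 1.5 times for a count, or less than 1 SD for *CITED2* and *KITLG*, and 119 moved further.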
